A study of Homo sapiens with 6 samples.

Results

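Transcripts of 7 genes of plasminogen activation were followed in HT-1080 cells, out of 26286 genes with a row in the deposited tables. The genes were named by symbol, but with earlier results of these data known, so the choice was not blind to their values. They are the plasminogen activators PLAU and PLAT, the urokinase receptor PLAUR and the serpins SERPINE2 and SERPINB2. The others are ANXA2 and S100A10, whose products form a plasminogen-binding complex. All 7 had a row and passed the filter on low counts. HT-1080 is a human fibrosarcoma cell line that carries an activating mutation in NRAS. Cells received the vehicle DMSO, 2 µM palbociclib, which inhibits the kinases CDK4 and CDK6, or 500 nM pimasertib, which inhibits the kinases MEK1 and MEK2 upstream of ERK. All 3 groups were collected after 48 h and differ, per the labels, in the treatment alone. Each group had 2 RNA sequencing libraries, 6 in all. Whether the numbered libraries stem from separate cultures is not in the labels. A p-value here therefore reflects the spread between libraries alone, and that spread may be technical. In bulk RNA of this kind, fewer cells that express a gene and less RNA per cell cannot be told apart.

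Plasminogen circulates as an inactive precursor and is cut to the broad protease plasmin by urokinase (PLAU) or by tissue-type activator (PLAT). Urokinase is held at the cell surface by its receptor PLAUR, and PLAT and plasminogen can bind the complex of annexin A2 with S100A10. Serpins such as SERPINE2 (protease nexin 1) and SERPINB2 (plasminogen activator inhibitor 2) trap the activators in complexes that are cleared by endocytic receptors. In fibrosarcoma and other invasive tumours, surface plasmin is known for degrading matrix and activating other proteases.

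Library totals ran from 13607490 to 17500655 counts, and 3 counts corresponded to 0.168 to 0.220 CPM (read counts scaled to a common library total) in single libraries. Markers were read as a check of cell type, which does not identify the line. Of 10 mesenchymal markers, 9 reached 1 CPM in some library, NT5E in palbociclib replicate 2 alone (1.40 CPM), and THY1 was at most at 0.303 CPM. The 10 summed to 3876 and 5860 CPM with DMSO, 5570 and 7846 CPM with palbociclib and 10334 and 14214 CPM with pimasertib. Single markers did not move alike: SPARC was at 859 and 1708 CPM with DMSO and 7191 and 10365 CPM with pimasertib, while VIM was at 998 and 987 against 671 and 511 CPM and CD44 at 1346 and 1832 against 416 and 461 CPM. Their part in the results below was not tested. The 10 epithelial markers summed to 2.01 to 14.2 CPM and the 10 leukocyte markers to 4.32 to 8.69 CPM. Of the leukocyte markers, CSF1R was at 2.96 to 6.04 CPM and CD74 at 0.425 to 4.08 CPM, while PTPRC was at 0 in all but 1 library. The endothelial markers summed to 186 to 457 CPM. Most of that came from TIE1, at 130 to 340 CPM. ROBO4 was at 70.9 and 85.7 CPM with DMSO, 69.8 and 73.7 CPM with palbociclib and 11.2 and 15.3 CPM with pimasertib. EGFL7 was at 12.7 to 51.5 CPM. PECAM1 and ERG had no row and VWF was at most at 0.0646 CPM.

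Promoter sequence is shown for PLAU and PLAUR, which fell together in pimasertib, and for ANXA2 and S100A10, the partners of 1 complex. Each run is the 250 bases before a RefSeq transcript start on GRCh38.p14, 5′ to 3′ on the gene's own strand. RefSeq windows were matched for 6 of the 7 genes. None was searched for PLAT, which also fell in pimasertib. Capitals mark the motifs found among those searched on both strands: AP-1 (TGANTCA), ETS (CCGGAA and AGGAAGT), SP1 (GGGCGG), CRE (TGACGTC), E-box (CACGTG) and TATA box (TATAAA). The builds differ, so these positions cannot be set beside the GRCh37 positions given below.
PLAU, second of its 2 starts, chr10:73910882-73911131, plus strand: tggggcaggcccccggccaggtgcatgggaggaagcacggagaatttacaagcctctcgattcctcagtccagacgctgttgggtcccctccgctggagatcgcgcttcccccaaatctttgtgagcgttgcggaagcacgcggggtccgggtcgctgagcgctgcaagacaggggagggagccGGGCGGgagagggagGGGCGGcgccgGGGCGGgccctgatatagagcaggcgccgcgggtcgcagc
PLAUR, chr19:43670170-43670419, minus strand: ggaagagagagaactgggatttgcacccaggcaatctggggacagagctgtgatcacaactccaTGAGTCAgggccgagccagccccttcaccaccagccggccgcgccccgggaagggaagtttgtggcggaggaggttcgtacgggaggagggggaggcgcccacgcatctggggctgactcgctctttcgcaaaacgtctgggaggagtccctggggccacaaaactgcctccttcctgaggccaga
ANXA2, chr15:60397987-60398236, minus strand: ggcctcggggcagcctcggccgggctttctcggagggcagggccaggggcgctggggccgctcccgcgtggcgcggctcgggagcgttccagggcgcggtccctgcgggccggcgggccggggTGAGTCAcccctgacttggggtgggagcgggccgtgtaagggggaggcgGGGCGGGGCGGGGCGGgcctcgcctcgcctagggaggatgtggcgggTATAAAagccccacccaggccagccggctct
S100A10, chr1:151993860-151994109, minus strand: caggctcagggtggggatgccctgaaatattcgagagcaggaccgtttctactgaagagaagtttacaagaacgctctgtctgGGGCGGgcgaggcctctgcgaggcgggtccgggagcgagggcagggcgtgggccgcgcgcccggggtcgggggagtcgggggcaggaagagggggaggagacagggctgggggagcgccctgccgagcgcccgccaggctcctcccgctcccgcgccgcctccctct

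The AP-1 letters lay 186 to 180 bases before the start of PLAUR, 127 to 121 bases before that of ANXA2, and, in a window not printed, 102 to 96 bases before that of SERPINB2. Of all 35116 RefSeq windows of this length, 6.57% held them. PLAU had 3 SP1 matches within 66 bases of its second start and none of the motifs before its first. ANXA2 had 3 SP1 matches, 2 pairs of which overlapped by 1 base, and a TATA box, and S100A10 had 1 SP1 match. SP1 letters occurred in 42.6% of windows and the TATA box in 10.7%. Neither ETS form and no CRE was found in the windows of the 6 genes searched, PLAT not among them, against 14.5%, 7.01% and 3.12% of all windows. A match is a description of the letters and not a bound site.

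Compared per length in the authors' deposited FPKM, ANXA2 was the most abundant of the 7 transcripts in DMSO, at 354 ± 23.6 FPKM (SD, n = 2). PLAU followed at 189 ± 119 FPKM, PLAT at 76.7 ± 45.7, PLAUR at 64.9 ± 27.7, S100A10 at 47.9 ± 8.25 and SERPINE2 at 21.5 ± 8.64 FPKM. SERPINB2 was at 1.82 ± 0.172 FPKM. Only ANXA2 and PLAU, S100A10 and SERPINE2, and SERPINE2 and SERPINB2 were neighbours in this order whose libraries did not overlap. In pimasertib the order after ANXA2 (568 ± 129 FPKM) was S100A10 (87.5 ± 15.3), PLAU (60.4 ± 11.5), SERPINE2 (22.9 ± 5.75), PLAT (19.8 ± 4.95) and PLAUR (18.1 ± 3.6), and the libraries of the last 3 overlapped. In palbociclib PLAT (243 ± 92.1 FPKM) and PLAU (221 ± 128 FPKM) overlapped behind ANXA2 (621 ± 28.4 FPKM).

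The library of replicate 2 was the higher one for PLAU, PLAUR, PLAT and SERPINE2 in every group, in 12 of 12 comparisons, a count over genes named after their values were seen. For PLAU the ratio of replicate 2 to replicate 1 in CPM was 2.61 with DMSO, 2.35 with palbociclib and 1.36 with pimasertib, and for PLAT it was 2.46, 1.70 and 1.48. The other 3 genes were lower in replicate 2 with pimasertib. ANXA2 had ratios of 1.10, 1.05 and 0.748, S100A10 of 1.28, 1.36 and 0.807, and SERPINB2 of 0.875, 1.01 and 0.601. Transcripts of the 13 genes of the mitochondrial genome also took a larger share of counts in replicate 2 of each group. That share was 3.21% and 5.67% for DMSO, 4.57% and 6.31% for palbociclib, and 4.25% and 8.76% for pimasertib. Its part in the results below was not tested.

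**Figure D1:**
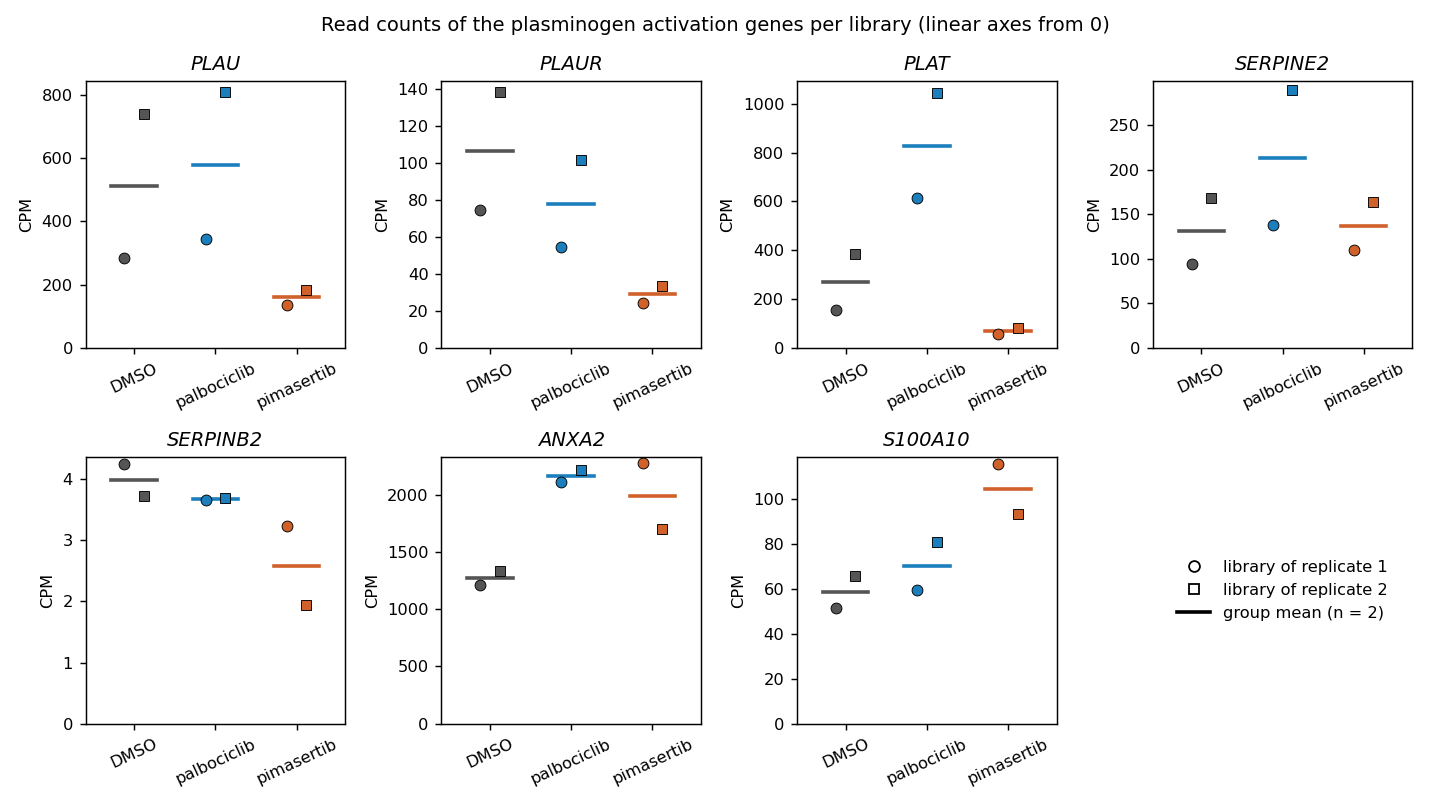
CPM of each of the 7 genes in the 6 libraries (vertical axes, linear from 0), by treatment (horizontal axes), with circles for replicate 1, squares for replicate 2 and a bar for the mean of 2 libraries. PLAU, PLAUR and PLAT are lowest in both pimasertib libraries, PLAT is highest in both palbociclib libraries, and ANXA2 is at 1704 CPM or more in all 4 treated libraries against 1211 and 1331 CPM in DMSO.

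Pimasertib was set against DMSO to ask which transcripts changed when MEK was inhibited. Both activators and the receptor fell, PLAT 3.94-fold, PLAUR 3.65-fold and PLAU 3.19-fold in mean CPM, and S100A10 rose 1.78-fold. Thus 3 of the 7 genes fell and 1 rose by the edgeR test at an adjusted p under 0.05, where 22.8% of all 14839 tested genes were called, 11.7% lower and 11.1% higher. The median log2 fold change of the 7 was -0.62, and that of all tested genes 0.0047. In 6 of the 7 the pimasertib and DMSO libraries did not overlap in CPM, which held for 64.2% of all tested genes. Calls among the 4 were lost on leaving out 1 or the other pimasertib library, as were calls over all tested genes. Such fits have 1 library in that group. Without replicate 1 the log2 fold changes were -1.73 for PLAT, -1.67 for PLAUR, -1.48 for PLAU and 0.66 for S100A10. Without replicate 2 they were -2.28, -2.11, -1.905 and 0.99 in the same order.

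PLAU, which encodes urokinase (ENSG00000122861, chromosome 10, positions 75668935 to 75677255, plus strand, GRCh37), was at 283 and 740 CPM in DMSO and at 136 and 184 CPM in pimasertib. Both pimasertib libraries lay below both DMSO libraries, although the DMSO libraries were far apart. The log2 fold change was -1.68 (SE 0.48, adjusted p 0.0296). The call was lost when DMSO replicate 2 (-0.83, adjusted p 0.185) or either pimasertib library (0.181 and 0.143) was left out, with DESeq2 (0.0824), with upper-quartile scaling (0.0712) or with the stricter filter (0.0524). In the authors' deposited table its adjusted p was 0.0589. A gene on the opposite strand, C10orf55, overlaps PLAU and had 7 to 33 counts per library, 0.307% of the PLAU counts.

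PLAUR, the receptor that holds urokinase at the surface (ENSG00000011422, chromosome 19, positions 44150247 to 44174699, on the minus strand), measured 74.2 and 138 CPM in DMSO and at 24.5 and 33.7 CPM in pimasertib. The groups did not overlap, and both pimasertib libraries were below the lower DMSO library. The log2 fold change was -1.87 (SE 0.36, adjusted p 0.00513). Of the 14 alternatives, 1 did not pass, the fit without pimasertib replicate 1 (adjusted p 0.0647).

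PLAT, the tissue-type activator (ENSG00000104368, chromosome 8, positions 42032236 to 42065242, on the minus strand), measured 156 and 384 CPM in DMSO and at 55.4 and 81.8 CPM in pimasertib. Again the groups did not overlap. The log2 fold change was -1.98 (SE 0.42, adjusted p 0.00872), and it did not pass without pimasertib replicate 1 (0.0925) or replicate 2 (0.0634). Without DMSO replicate 2 it passed at a smaller log2 fold change of -1.19 (adjusted p 0.0120).

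Among the serpins, SERPINE2, which inhibits urokinase, thrombin and other serine proteases (ENSG00000135919, chromosome 2, positions 224839829 to 224904036, on the minus strand), measured 93.9 and 168 CPM in DMSO and at 111 and 164 CPM in pimasertib. Both pimasertib libraries fell between the DMSO libraries, with a log2 fold change of 0.066 (SE 0.38, adjusted p 0.917). SERPINB2, which stays mostly inside the cell (ENSG00000197632, chromosome 18, positions 61538926 to 61571124, plus strand), had 70 and 55 counts in DMSO and 56 and 30 counts in pimasertib. These are 4.25 and 3.72 CPM against 3.22 and 1.94 CPM, with a log2 fold change of -0.62 (SE 0.41, adjusted p 0.296).

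S100A10, the light chain that binds the tail of annexin A2 and carries a plasminogen-binding lysine (ENSG00000197747, chromosome 1, positions 151955391 to 151966866, on the minus strand), measured 51.4 and 65.7 CPM in DMSO and at 116 and 93.3 CPM in pimasertib. Both pimasertib libraries lay above both DMSO libraries. The log2 fold change was 0.84 (SE 0.24, adjusted p 0.0288), and the call was lost on leaving out DMSO replicate 1 (0.172) or either pimasertib library (0.167 and 0.0773). ANXA2 (ENSG00000182718, chromosome 15, positions 60639333 to 60695082, on the minus strand) measured 1211 and 1331 CPM in DMSO and at 2279 and 1704 CPM in pimasertib. The libraries did not overlap, but the log2 fold change of 0.65 (SE 0.25) did not pass (adjusted p 0.0911). It passed with DESeq2 (0.0161), with a term for the replicate number (edgeR, 0.00271) and, narrowly, with upper-quartile scaling (0.0495). The authors' deposited table gives an adjusted p of 0.0348. ANXA2 has processed pseudogenes of near-identical sequence, of which ANXA2P2 had 77 to 199 counts per library, 0.469% of the ANXA2 counts, so its level is uncertain as far as reads were split or dropped between copies.

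**Figure D2:**
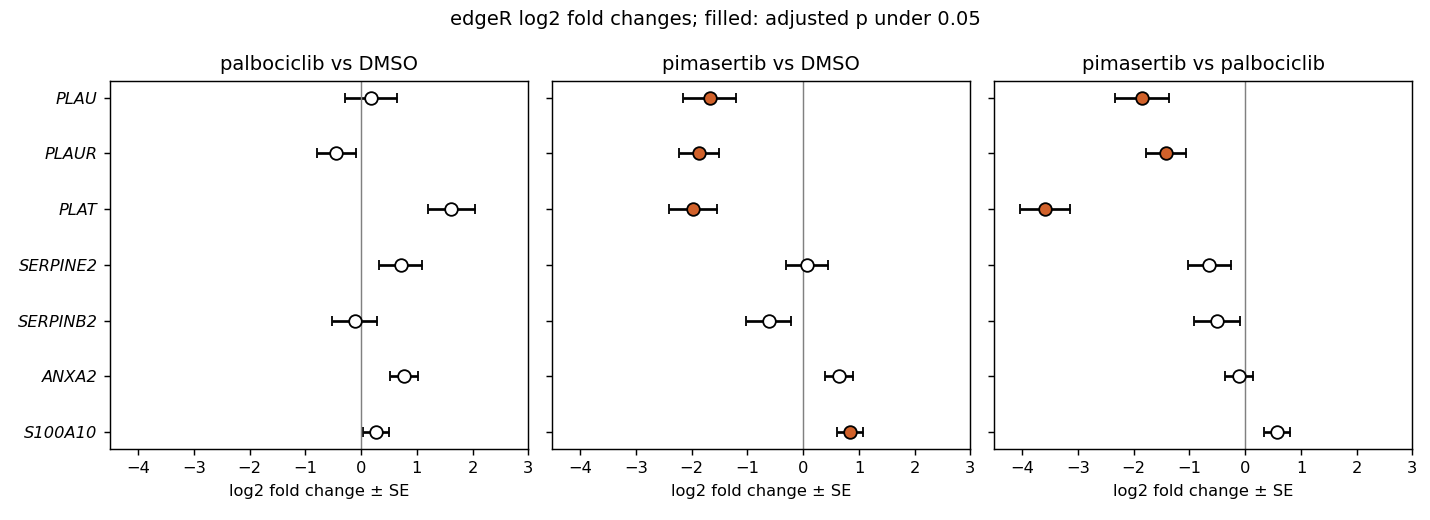
Log2 fold change with its SE (horizontal axes) for each gene (vertical axis) in the 3 comparisons, from edgeR over all 6 libraries, filled where the adjusted p is under 0.05. PLAU, PLAUR and PLAT lie below 0 with pimasertib against either other group, and PLAT is at 1.62 with palbociclib against DMSO.

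The comparison of palbociclib with DMSO asked the same of CDK4/6 inhibition. PLAT was 3.07-fold higher in mean CPM and ANXA2 1.70-fold higher, but none of the 7 genes passed the edgeR test, where 3.54% of all tested genes were called, 1.11% higher and 2.44% lower. DESeq2 called PLAT and ANXA2, 2 of the 7, as higher, where it called 883 of all tested genes, 355 of them higher. PLAT alone of the 7 was called by limma-voom, which called 539 of all tested genes, 154 of them higher. The median log2 fold change of the 7 was 0.26, beside 0.0048 over all tested genes, and 3 of 7 had libraries that did not overlap, as did 46.8% of all tested genes. With a term for the replicate number, edgeR called 4 of the 7, PLAT, ANXA2 and SERPINE2 higher and PLAUR lower. Calls over all tested genes went from 526 to 2953 in that fit. The labels do not say whether same-numbered libraries share a culture or day.

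PLAT was at 613 and 1043 CPM in palbociclib, against 156 and 384 CPM in DMSO. Both palbociclib libraries lay above both DMSO libraries. The log2 fold change was 1.62 (SE 0.42, adjusted p 0.0654), and over the 14 alternatives the adjusted p ranged up to 0.254. It passed in 6 of them, which included DESeq2 (6.92e-04), limma-voom (0.0449), the fit with no filter on low counts (4.91e-07) and the fits without DMSO replicate 2 (log2 fold change 2.41, 2.57e-04) or palbociclib replicate 1 (0.00598), the remaining one being the fit with a term for the replicate number. Among the fits in which PLAT did not pass was edgeR on the 4 libraries of this comparison (adjusted p 0.134). The log2 fold change of PLAT was 1.20 without palbociclib replicate 2 and 1.11 without DMSO replicate 1. The authors' deposited table gives PLAT an adjusted p of 6.72e-04. ANXA2 was at 2112 and 2213 CPM, above both DMSO libraries, with a log2 fold change of 0.77 (SE 0.25, adjusted p 0.142). The adjusted p was 0.0114 with DESeq2, 0.00243 in edgeR with a term for the replicate number and 0.0175 in the authors' deposited table.

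PLAU was at 344 and 810 CPM in palbociclib, so that the groups overlapped, with a log2 fold change of 0.17 (SE 0.46, adjusted p 0.89). PLAUR was at 54.6 and 101 CPM (log2 fold change -0.45, SE 0.35, adjusted p 0.558) and also overlapped with DMSO. SERPINE2 was at 138 and 290 CPM (log2 fold change 0.71, SE 0.38, adjusted p 0.364). Without palbociclib replicate 1, the lower of the 2 palbociclib libraries, the log2 fold change of SERPINE2 was 1.15. Without palbociclib replicate 2 it was 0.094. In the edgeR fit with a term for the replicate number SERPINE2 passed (adjusted p 0.00309), as did PLAUR (0.0371). S100A10, at 59.6 and 80.7 CPM, and SERPINB2, at 3.66 and 3.69 CPM, had log2 fold changes of 0.26 (adjusted p 0.62) and -0.12 (adjusted p 0.918).

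Set directly against palbociclib, pimasertib gave lower PLAT, PLAU and PLAUR and no call for the other 4 genes. These were 3 calls among 7 genes, where 9.39% of all tested genes were called, 5.07% higher and 4.31% lower. The libraries of 5 of the 7 did not overlap, as for 56.5% of all tested genes, and the median log2 fold change was -0.64, beside 0.016 over all. PLAT differed the most, 12.1-fold in mean CPM, with a log2 fold change of -3.59 (SE 0.45, adjusted p 7.68e-04), and passed in all 14 alternatives (adjusted p at most 0.0267). PLAU was 3.60-fold lower (-1.85, SE 0.48, adjusted p 0.0373) and PLAUR 2.68-fold lower (-1.42, SE 0.36, adjusted p 0.0322). Neither passed on leaving out palbociclib replicate 2 (log2 fold changes of -1.09 and -0.90, adjusted p 0.162 and 0.112) or one of the pimasertib libraries (0.220 and 0.207 without the first, 0.214 and 0.149 without the second), with upper-quartile scaling (0.0829 and 0.0762) or with the stricter filter (0.0662 and 0.0583), nor PLAU with DESeq2 (0.081). S100A10 had a log2 fold change of 0.57 (SE 0.23, adjusted p 0.161), and SERPINE2 one of -0.64 (SE 0.38, adjusted p 0.327). Both passed in edgeR with a term for the replicate number (0.0136 and 0.00489). Without palbociclib replicate 1 the log2 fold change of SERPINE2 was -1.09, and without palbociclib replicate 2 it was 0.0071. ANXA2 was at -0.12 (SE 0.25, adjusted p 0.807) and SERPINB2 at -0.51 (SE 0.41, adjusted p 0.47).

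Ratios of FPKM within a library do not depend on how libraries are scaled to each other. They were chosen after the values were seen and are given as a description, since 2 libraries against 2 cannot reach an exact permutation p below 0.333 (two-sided). PLAT stood at 0.423 and 0.398 of PLAU with DMSO, at 1.37 and 0.989 with palbociclib, and at 0.313 and 0.341 with pimasertib. In palbociclib PLAT was thus above PLAU in replicate 1 and near it in replicate 2, while in the other groups PLAT was less than PLAU in every library. SERPINE2 stood at 0.147 and 0.101 of PLAU with DMSO, at 0.178 and 0.159 with palbociclib, and at 0.361 and 0.394 with pimasertib, with no overlap between groups. The ratio of ANXA2 to S100A10 was 8.03 and 6.91 with DMSO, 12.1 and 9.34 with palbociclib and 6.71 and 6.22 with pimasertib. PLAU stood at 2.31 and 3.24 times PLAUR with DMSO, 3.81 and 4.85 times with palbociclib and 3.36 and 3.32 times in pimasertib.

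**Figure D3:**
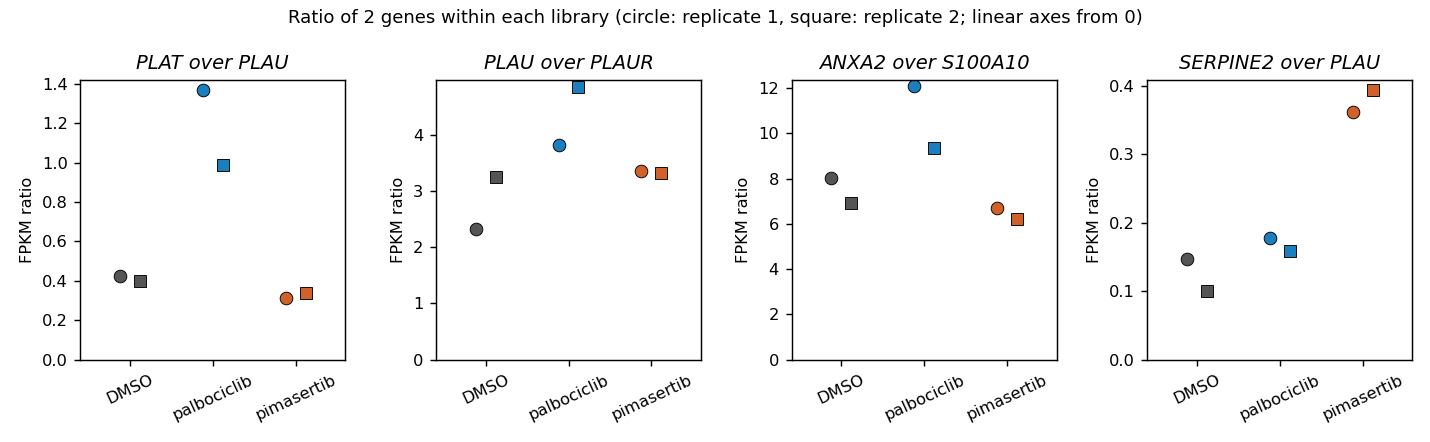
Ratio of the FPKM of 2 genes within each library (vertical axes, linear from 0) by treatment, with circles for replicate 1 and squares for replicate 2. PLAT over PLAU is at 1.37 and 0.989 in palbociclib and at most 0.423 elsewhere, and SERPINE2 over PLAU is highest in pimasertib.

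Beyond these 7 genes, 6 lists of the same system were read from the same fit: receptors of plasminogen, protease inhibitors, partners of the urokinase receptor, other proteases and coagulation genes, annexins and S100 genes. Of their 87 genes, 73 had a row and 51 passed the filter. The lists, too, were chosen with earlier results of these data known. In pimasertib 16 of the 51 rose and 9 fell, with a median log2 fold change of 0.43, so that 49.0% were called, beside 22.8% of all tested genes, 11.1% higher and 11.7% lower. In palbociclib 2 rose and 1 fell, 5.88% beside 3.54%. Against palbociclib, pimasertib was higher in 7 and lower in 6, 25.5% beside 9.39%. Of the 25 calls of pimasertib against DMSO, 9 passed whichever of the 6 libraries was left out, 5 of them higher and 4 lower. The other 16 were each lost in 1 to 3 of those fits, and every one of them in a fit without a pimasertib library. Such fits have 1 library in that group, and calls over all tested genes also fell in them. The share of all calls that passed in every such fit was not computed, so the 9 of 25 has no share beside it.

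Of 7 tested protease inhibitors, 3 rose and 2 fell in pimasertib, where 11.1% of all tested genes were called higher and 11.7% lower. SERPINA1, alpha-1-antitrypsin, rose from 0.486 and 0.878 CPM to 6.22 and 8.33 CPM (log2 fold change 3.41, adjusted p 0.00116). SERPINB8, an intracellular serpin, fell from 35.4 and 33.8 to 16 and 13.1 CPM (-1.25, adjusted p 0.0023). SERPINH1, a collagen chaperone, rose (1.06, adjusted p 0.0328) and SERPIND1, heparin cofactor 2, fell to at most 3 counts per library, from 0.85 and 1.69 CPM. These last 2 calls were among those lost when a library was left out.

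Of 14 tested partners and clearance receptors of the urokinase receptor, 4 rose and 3 fell in pimasertib. Over all tested genes these shares were 11.1% and 11.7%. LRP1, which takes up complexes of activators with serpins, rose from 160 and 245 to 724 and 1100 CPM (log2 fold change 2.17, SE 0.35, adjusted p 0.00187). VLDLR, a relative that takes up the same complexes, fell from 14 and 20.4 to 4.95 and 5.30 CPM (-1.75, adjusted p 0.00198). ITGAV, a subunit of the vitronectin receptor, rose from 93.6 and 174 to 662 and 651 CPM (2.29, adjusted p 0.00153). LY6K, a surface protein of the family of PLAUR, fell in pimasertib (-1.64, adjusted p 0.00209) and in palbociclib (-1.31, adjusted p 0.0232, but 0.0826 without palbociclib replicate 2 and lost with upper-quartile scaling). ITGA3 (1.48) and MRC2 (1.44), a collagen receptor associated with PLAUR, rose, both among the calls that were lost without some library.

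Of 7 tested receptors of plasminogen and related genes, 2 rose and 3 fell in pimasertib, beside 11.1% and 11.7% of all tested genes. CDCP1, a surface protein that plasmin can cleave, fell from 42.3 and 49.9 to 12.2 and 12.3 CPM (-1.91, SE 0.21, adjusted p 2.28e-04). HMGB1 (-1.35) and AHNAK (-0.99), a scaffold that binds the complex of ANXA2 and S100A10, fell, and KRT8 (1.18) and H2BC21 (1.58) rose, in calls lost without some library. Of 8 other proteases and coagulation genes 4 rose and none fell, counted at an adjusted p under 0.05, beside the same 11.1% and 11.7%. F2RL2, protease-activated receptor 3, went from 5.46 and 7.50 to 32.8 and 37.3 CPM (2.43, SE 0.25, adjusted p 1.58e-04). It also rose in palbociclib (1.05, adjusted p 0.0435), though not without DMSO replicate 1, palbociclib replicate 2 or either pimasertib library (adjusted p up to 0.248). CTSB (1.70), PROCR (0.87) and PRSS23 (0.84) were the other 3, each lost without DMSO replicate 1 or either pimasertib library.

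Among the relatives of ANXA2, 1 of 7 annexins rose in pimasertib, ANXA4 (1.23, adjusted p 0.0165), which is near the 11.1% of all tested genes called higher. Among the relatives of S100A10, 2 of 8 tested S100 genes rose, S100A11 (0.98, adjusted p 0.0101) and S100A13 (1.14, adjusted p 0.0107), beside the same 11.1%. S100A16 fell (-0.89, adjusted p 0.0156), and 1 of 8 is near the 11.7% of all tested genes called lower. Each of these 4 calls was lost without some library. S100A6 was the gene of this family that rose in palbociclib, from 224 and 305 to 605 and 613 CPM (1.20, adjusted p 0.0231, but up to 0.126 without DMSO replicate 1, palbociclib replicate 2 or either pimasertib library). Against palbociclib it was lower in pimasertib, at 228 and 190 CPM (-1.54, adjusted p 0.00301, or 0.0718 without pimasertib replicate 2).

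**Figure D4:**
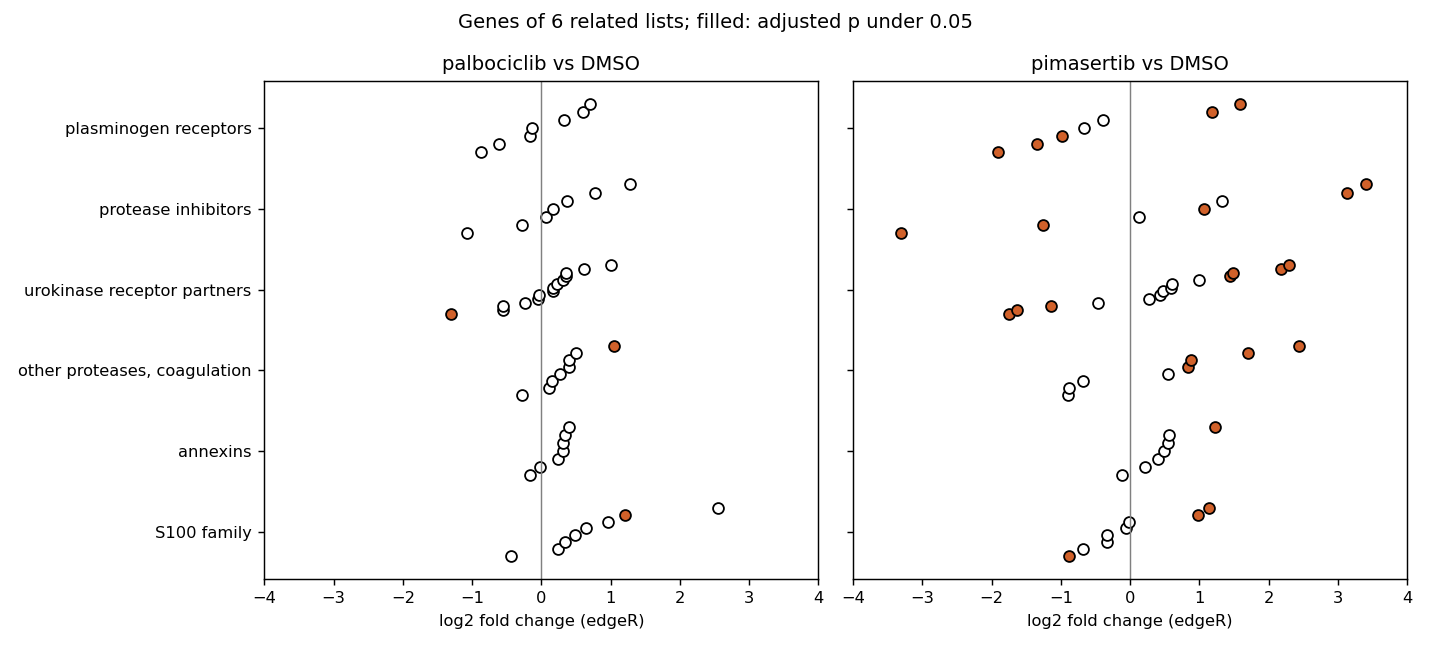
Log2 fold change (horizontal axes) of each tested gene in 6 lists (vertical axis) for palbociclib and pimasertib against DMSO, which share the DMSO libraries, filled where the edgeR adjusted p is under 0.05. In pimasertib 16 genes are filled to the right of 0 and 9 to the left, and in palbociclib 2 and 1.

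The genes whose levels ran most like each of the 7 over the 6 libraries were found by Euclidean distance of centred log2 CPM, among 10526 protein-coding genes. PLAUR was closest to HBEGF, at a distance of 0.285, which went from 76.2 and 135 CPM in DMSO to 60.4 and 91.1 in palbociclib and 27.0 and 38.1 in pimasertib. SLC20A1 and ARHGEF4 were among the 3 nearest to both PLAUR (0.412 and 0.497) and PLAU (0.632 and 0.745), and TIMP1 was the other near PLAU (0.715). PLAT had more distant neighbours, GALNT4 (0.83), DCC (1.09) and POC1B (1.15). GALNT4 and POC1B overlap on the same strand, so reads of these 2 cannot be fully told apart. SERPINE2 ran most like SAT1, C3AR1 and TSPAN9 (0.254 to 0.285) and SERPINB2 like C12orf75, BPNT1 and SLC25A24 (0.148 to 0.163). ANXA2 ran most like ARPC3, APRT and AHCYL2 (0.171 to 0.175), and S100A10 like ATP6V1A, PLEKHA1 and ZNF302 (0.178 to 0.23). All of these share the same 6 libraries and their replicate differences.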

How the data were processed

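The authors deposited 1 table per drug with raw read counts per gene for its libraries and the DMSO libraries, FPKM values and their own comparison with DMSO. Tools named in the submitters' processing notes are DESeq2, HTSeq 0.6.1, STAR 2.5 and CASAVA, without settings, and the builds are GRCh37 and hg19. Use of strand in counting is not given in the sources. Per the file headers, the deposited p-values and log2 fold changes are those of the authors, and are named as theirs where printed. The deposited FPKM are the counts divided by the tables' gene length and by the library's total. Genes listed in 1 table alone had no DMSO reads, and their missing counts were taken as 0.

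The test on counts was that of edgeR 4.0.16 under R 4.3.3 (filterByExpr with minimum count 10 and minimum total 15, TMM, robust glmQLFit over 3 groups, glmQLFTest, two-sided, Benjamini-Hochberg over 14839 genes, threshold 0.05). The SE is the absolute log2 fold change divided by the square root of F. Log2 CPM for distances used a prior count of 2. The edgeR fit was also run on simulated counts with 1 spread for all genes and no shared replicate difference. That setting is simpler than these libraries, so nothing above rests on it. Alternatives were DESeq2 1.42.0, limma-voom (limma 3.58.1), DESeq2's size-factor method, upper-quartile scaling, no filter, a minimum count of 50, the 4 libraries of each comparison, a replicate block and leaving out each library, 14 in all. Where that left 1 library in a group, it was assumed to vary like the others. Named were all 7 genes, called genes of the 6 lists (some are counted but not reported here by name) and, for each of the 7, the 3 nearest protein-coding genes with at least 5 CPM in some group. The genes and lists were chosen with earlier results of these data known. The floor of 3 counts covers counting error alone, because PCR duplicates are not separate molecules.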

Additional observations from a re-analysis of the deposited data

How the results depend on the processing

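Of 294 log2 fold changes of the 7 genes under alternatives, 247 kept their direction and side of the threshold, 23 lost a call, 17 gained one and 7 changed sign, all 7 with a library left out and an adjusted p of at least 0.674. These were PLAU in palbociclib (-0.36 without DMSO replicate 1 and -0.55 without palbociclib replicate 2, in a range of -0.55 to 1.02 over the fits that left out 1 library), PLAUR in palbociclib (0.071 without DMSO replicate 2, range -0.94 to 0.071), SERPINE2 in pimasertib (-0.30 without DMSO replicate 1 and -0.24 without pimasertib replicate 2, range -0.30 to 0.54), and, for pimasertib against palbociclib, SERPINE2 (0.0071 without palbociclib replicate 2, range -1.09 to 0.0071) and ANXA2 (0.075 without pimasertib replicate 2, range -0.35 to 0.075). With 1 library left out, the number of the 7 genes called ranged from 0 to 2 in palbociclib (0 with all libraries), 0 to 4 in pimasertib (4) and 1 to 4 between the drugs (3), and of the list genes from 0 to 7 (3), 11 to 28 (25) and 4 to 18 (13). In palbociclib the 7 genes had 1 call without a filter, 1 from limma-voom and 2 from DESeq2, and the lists had 7 from DESeq2, 7 without a filter, 1 with upper-quartile scaling and 1 from the 4 libraries of the comparison. Between the drugs the 7 genes had 1 call with upper-quartile scaling and 1 with the stricter filter, and the lists had 22 with no filter. The cause was not tested. Upper-quartile scaling moved the median of all genes in pimasertib to 0.124, from 0.0047.

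The fit with a replicate block called 4 of the 7 genes in palbociclib (3 higher: PLAT, adjusted p 5.49e-06, SERPINE2, 0.00309, and ANXA2, 0.00243, and 1 lower: PLAUR, 0.0371), 5 in pimasertib (ANXA2 in addition, 0.00271) and 5 between the drugs (SERPINE2, 0.00489, and S100A10, 0.0136, in addition), and 14, 38 and 36 list genes. Deviations of same-numbered libraries correlated at 0.345 to 0.397 over 14839 genes, which with 2 numbers per group is a hint from the data and not from the design. Over all genes the block gave 2953, 6551 and 4703 calls in the 3 comparisons, against 526, 3376 and 1393. The count in palbociclib was 883 with DESeq2, 1097 with no filter, 325 from its 4 libraries and 334 to 763 with a library left out. In pimasertib it was 1055 to 4084 with a library left out, and between the drugs 456 to 1940, or 2256 with no filter.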

Other observations

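The library of palbociclib replicate 2 held KRT19 at 9.17 CPM and KRT14 at 2.01 CPM, epithelial keratins that were at most at 0.403 and 0 CPM in the other 5 libraries. EPCAM and CDH1 were at 0.28 and 0 CPM in it. This library also had the highest CPM of PLAU, PLAT and SERPINE2 of all 6, and whether the 2 facts are related was not tested.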
